A study of Mus musculus with 24 samples.

Results

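Kupffer cells, the resident macrophages of the liver, and macrophages derived from blood monocytes were followed through 10 marker genes in livers of mice fed ethanol. The genes were Clec4f, Vsig4, Timd4, Marco, Cd5l, Adgre1, Csf1r, Cd163, Ccr2 and Lyz2, and they were found as the 14 probes, of 41174 non-control probes on the array, whose transcript accession maps to one of these symbols. Clec4f, Vsig4, Timd4, Marco, Cd5l and Cd163 mark resident Kupffer cells in the mouse, and Adgre1 and Csf1r mark macrophages in general. Ccr2 marks monocytes recruited from blood. Lyz2, listed with Ccr2, is transcribed in monocytes, macrophages and neutrophils. Each value is the log2 ratio of liver RNA, labelled with Cy5, over a common reference RNA, labelled with Cy3, on 1 two-colour Agilent array per sample, with 24 arrays in all. A positive difference means more signal in the first-named group.

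The livers came from male C57BL/6N mice in 6 groups. The code E10d1B stands for an ethanol diet of 10 days followed by a binge of 5 g of ethanol per kg (n = 3), and P10d for its control, pair-fed for 10 days (n = 3). E8wMB stands for 8 weeks of ethanol diet with a binge of 5 g per kg given 2 times per week (multi-binge, n = 4), E8w1B for 8 weeks of ethanol diet with such a binge once (single-binge, n = 5), E8w for 8 weeks of ethanol diet with no binge (n = 5) and P8w for 8 weeks of pair feeding (n = 4). Pair-fed mice receive a control diet in matched amount. The labels do not give the age of the mice, nor do they say that the replicates of a group are separate animals, so the p-values measure the spread between these samples, and the small number of arrays limits their precision. Whole liver was used, so that fewer macrophages and less of a transcript per macrophage cannot be told apart.

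Kupffer cells sit in the sinusoids, take up bacteria, debris and aged red cells from portal blood and depend on the growth factor receptor CSF1R, whose ligands are CSF1 and IL-34. In alcoholic liver disease they are known as a source of inflammatory cytokines, and monocytes that carry the chemokine receptor CCR2 enter the liver in response to CCL2 and related chemokines. Clec4f, a galactose-binding lectin, is confined in the mouse to Kupffer cells; Timd4 encodes a phosphatidylserine receptor of long-lived resident macrophages, Vsig4 a complement receptor that captures bacteria, and Marco a scavenger receptor. Cd5l encodes a secreted scavenger protein, also known as AIM, whose transcription in mouse macrophages is driven by the oxysterol receptor LXR (Nr1h3). Cd163 takes up complexes of haemoglobin and haptoglobin and is known to be induced by glucocorticoids and interleukin 10.

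The promoters of 3 resident markers are shown because Cd5l and Cd163 moved in opposite directions after a single binge and Clec4f is the marker most restricted to Kupffer cells. The sequences run from 250 bases before to 50 after a start that RefSeq's table gives for the gene, which for Cd163 is not its outermost start; they are RefSeq's on GRCm38.p6 and were found for 8 of the 10 genes. Capitals mark GAGGAA or its reverse complement TTCCTC, a core of the sites bound by PU.1, the transcription factor that macrophages require.
Cd5l, chr3:87357631-87357930, plus strand: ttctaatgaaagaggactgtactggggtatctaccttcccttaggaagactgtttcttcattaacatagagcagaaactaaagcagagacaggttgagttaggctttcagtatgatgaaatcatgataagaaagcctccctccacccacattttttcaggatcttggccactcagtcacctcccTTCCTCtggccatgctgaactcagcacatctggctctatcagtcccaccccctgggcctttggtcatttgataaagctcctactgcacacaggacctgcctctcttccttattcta
Cd163, chr6:124304401-124304700, plus strand: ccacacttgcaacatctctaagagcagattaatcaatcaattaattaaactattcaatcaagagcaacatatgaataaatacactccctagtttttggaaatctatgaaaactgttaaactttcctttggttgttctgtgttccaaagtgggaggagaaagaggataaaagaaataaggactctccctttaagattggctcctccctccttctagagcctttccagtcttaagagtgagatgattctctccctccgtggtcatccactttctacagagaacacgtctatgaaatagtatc
Clec4f, chr6:83656067-83656366, minus strand: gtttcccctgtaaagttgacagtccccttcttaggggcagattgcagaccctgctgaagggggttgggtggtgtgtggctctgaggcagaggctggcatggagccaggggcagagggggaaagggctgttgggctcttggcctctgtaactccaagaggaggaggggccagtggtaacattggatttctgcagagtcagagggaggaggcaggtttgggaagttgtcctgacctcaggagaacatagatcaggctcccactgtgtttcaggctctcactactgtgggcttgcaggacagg
The motif, searched on both strands, was present in 28.3% of all 32851 promoters of 300 bases and in those of 3 of the 8 markers, Vsig4, Marco and Cd5l. The single match of Cd5l began 66 bases before the start. Cd163 and Clec4f held no match to these letters in this window. A link between the motif and the direction of change of a marker was not tested.

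Most of the macrophage transcripts were well measured in these livers. Of the 10 markers 9, all except Timd4, were well above background in Cy5 on all 24 arrays with at least 1 probe. Cd5l and Clec4f were among the bright probes of the array, at the 95.2 and 94.5 percentile of mean Cy5 intensity, while Ccr2 lay at the 31.9 and Timd4 at the 22.1 percentile. Timd4 passed on 15 arrays, on 1 of 3 E10d1B arrays and 0 of 3 P10d arrays, and the second probe of Adgre1 (A_52_P364727) on 5 arrays. The reference RNA held the same transcripts at a like intensity: Clec4f averaged 11.45 in Cy5 and 11.51 in Cy3 (log2 intensity), and Cd5l 11.66 and 11.58. The labels name the reference as assorted mouse RNA in one field and as liver in another. The labelled tissue could be checked on 6 of 8 hepatocyte markers, which were well above background on all arrays at a median Cy5 percentile of 99.6.

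The arrays fell into 3 scans by scanning time. Per the file headers, E8wMB was scanned alone and on another scanner unit, both 10-day groups together, and E8w1B, E8w and P8w together, spread over 5 slides. A comparison of E8wMB with any other group, or of P8w with P10d, therefore cannot be told apart from the scan. The difference of the binge effects after 8 weeks and 10 days also spans separate scans. Between the E8wMB scan and that of the other 8-week groups the reference channel had a median r across genes of 0.914. Among arrays of the other 8-week groups it was 0.985. Within E8w1B, replicate 1 was lowest in 7 of the 14 marker probes and replicate 2 was highest in 11. The median Cy5 intensity ranged from 95.5 to 247 between arrays.

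**Figure D1:**
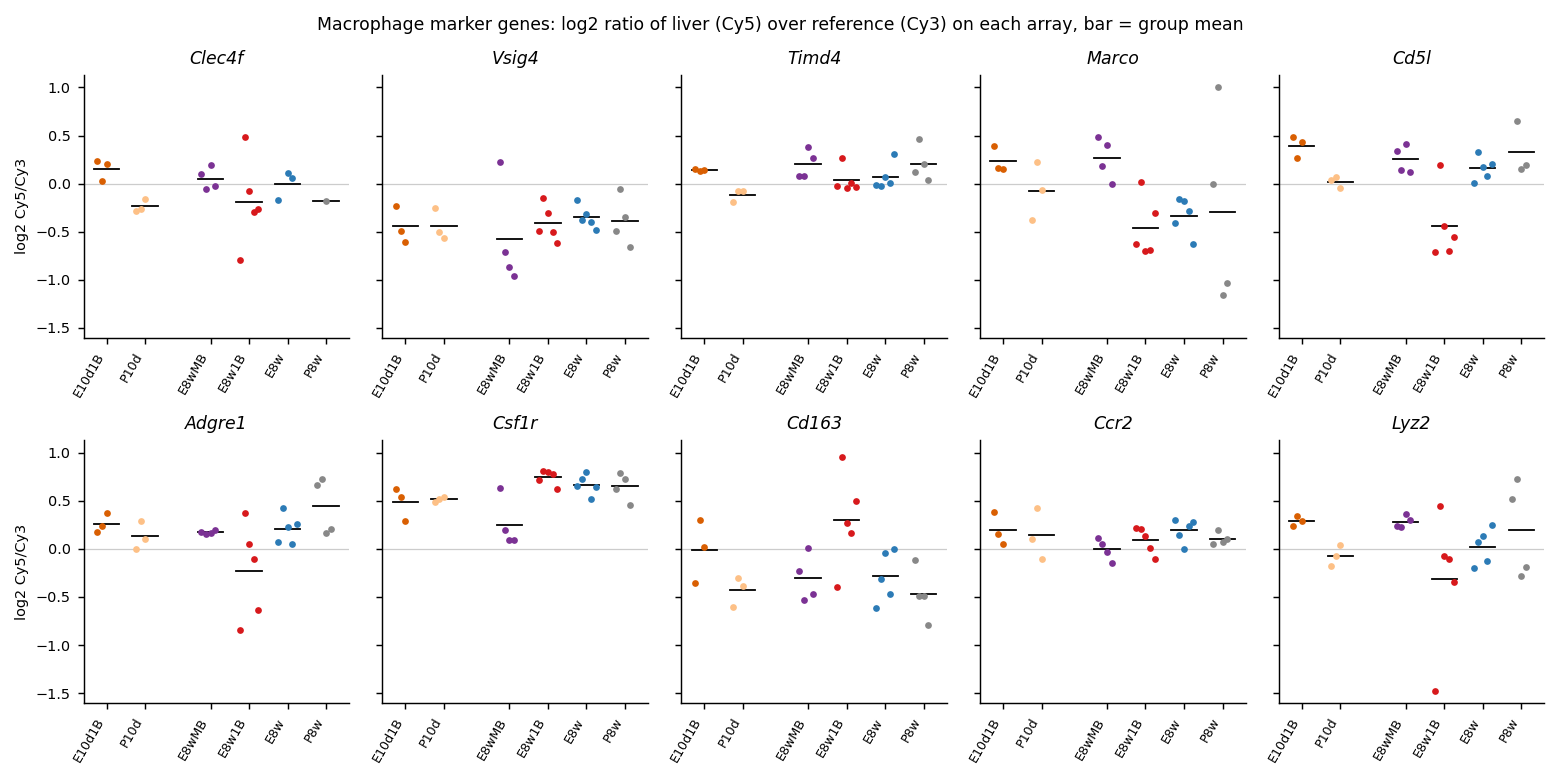
Each panel plots 1 marker gene, with the log2 ratio of liver (Cy5) over reference (Cy3) on the vertical axis and the 6 groups on the horizontal axis; points are arrays and bars are group means. Cd5l lay below 0 on 4 of 5 E8w1B arrays, Cd163 was highest there, and Marco was spread widely in P8w.

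The first question was whether 8 weeks of ethanol alone moved the markers. None of the 9 tested markers passed in E8w against P8w, with 0.153% of 15700 genes called at an adjusted p under 0.05 (limma, Benjamini-Hochberg over all genes tested), and 0 had an unadjusted p under 0.05. The other settings tried called 0 markers as well, Cy5 alone among them (0.115% of genes called). The differences of the 9 markers lay between -0.24 (Adgre1) and 0.19 (Cd163), with standard errors up to 0.28. Timd4 had the lowest adjusted p (-0.13 ± 0.09, log2 difference ± SE, adjusted p = 0.876). Clec4f was not tested against P8w, because spots the scanner software marked as uneven or as outliers left 1 P8w array. With the marked spots kept, Clec4f averaged 0.04 in E8w and 0.12 in P8w, a difference of -0.08 ± 0.17. Among the other macrophage genes, none of 16 resident Kupffer cell genes, of 14 recruited monocyte genes or of 10 macrophage ligands was called. Of 22 pan-macrophage genes 1 fell, in the ratio and in Cy5 alone.

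After a single binge on top of 8 weeks of ethanol the markers changed in both directions. Cd5l and Adgre1 fell and Cd163 rose in E8w1B against P8w, so that 3 of 9 tested markers were called, where 16.2% of all genes tested were called. In Cy5 alone 2 of 9 were called, beside 11.4% of genes.

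Cd5l, the LXR-driven scavenger protein, had ratios of -0.71, 0.19, -0.44, -0.70 and -0.56 on the E8w1B arrays, against 0.65, 0.15 and 0.19 on the P8w arrays; the spot of P8w replicate 1 was marked and left out. The E8w1B arrays were low except replicate 2, which lay within the P8w range. Cd5l fell by 0.77 ± 0.15 on the log2 scale (SE, n = 5 and 3 arrays, adjusted p = 0.00115). The Cy5 channel alone gave -0.95 and the reference channel -0.18.

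With the slide as a block the difference of Cd5l was -0.67 (adjusted p = 0.00297), and it was negative on all 3 shared slides, at -0.46, -0.58 and -0.75. Against E8w, where the ratios were 0.01, 0.33, 0.17, 0.08 and 0.20, Cd5l fell by 0.60 ± 0.13 (adjusted p = 0.00273), and by between 0.14 and 0.89 on the 5 shared slides. In that comparison 2 of 10 markers were called, beside 16.4% of all genes, and in Cy5 alone 1 of 10, beside 8.61%. The call of Cd5l held in both comparisons under all 13 alternative settings (adjusted p from 0.000163 to 0.0388 against P8w and from 0.00103 to 0.0345 against E8w) and without each array in turn.

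Adgre1, which encodes the F4/80 antigen, had ratios of -0.84, 0.37, 0.05, -0.11 and -0.64 on the E8w1B arrays, against 0.66, 0.73, 0.17 and 0.21 on the P8w arrays. The groups overlapped through E8w1B replicate 2. Adgre1 fell by 0.68 ± 0.17 (n = 5 and 4, adjusted p = 0.00769), by 0.58 with the slide as a block, and it was lower on all 4 shared slides, by 0.12 to 0.85. Without E8w1B replicate 1 the difference was -0.53 and was still called. The scanner software's own log ratio gave -1.26. The mean with the dim second probe of Adgre1, itself at -0.12 ± 0.10 where 11.4% of all probes were called, gave -0.40. In a fit of these 2 groups alone the call was lost (adjusted p = 0.092, range over the 13 alternatives 0.00264 to 0.092). Against E8w Adgre1 differed by -0.44 ± 0.16 (adjusted p = 0.0685), short of the threshold.

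Cd163, the haemoglobin scavenger receptor, moved the other way. Its ratios were -0.40, 0.96, 0.27, 0.17 and 0.50 on the E8w1B arrays, against -0.12, -0.49, -0.49 and -0.79 on the P8w arrays. All E8w1B arrays except replicate 1 lay above every P8w array. Cd163 rose by 0.77 ± 0.20 (n = 5 and 4, adjusted p = 0.00851), by 0.90 with the slide as a block, and was higher on all 4 shared slides, by 0.30 to 1.45. The Cy5 channel alone gave 0.67 (adjusted p = 0.0732, range over the 13 alternatives 0.00337 to 0.0732), and a fit of these groups alone also missed the threshold. Against E8w Cd163 rose by 0.59 ± 0.19 (adjusted p = 0.033), by 0.59 with the slide as a block and by 0.17 to 1.27 on the 5 shared slides. This second call was lost in 3 of the 13 alternative settings, Cy5 alone among them (0.53, adjusted p = 0.176, range over the 13 alternatives 0.0205 to 0.176), and in 6 of the 10 fits that left out 1 array, among them the one without E8w1B replicate 2 (0.42), the only fit among these 10 in which the difference was under 0.50.

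The other markers were not called after the single binge. Lyz2, the lysozyme of monocytes, macrophages and neutrophils, had ratios of -1.48, 0.45, -0.07, -0.11 and -0.34 on the E8w1B arrays, against 0.52, 0.73, -0.28 and -0.19 on the P8w arrays. The difference of -0.51 ± 0.25 (adjusted p = 0.185) rested on a wide spread in both groups, and without E8w1B replicate 2 Lyz2 passed the test. Vsig4, Timd4, Marco, Csf1r and Ccr2 differed from P8w by -0.17 to 0.09. For Csf1r this is the brightest probe; the third probe (A_52_P602091) differed by -0.56 ± 0.20 (adjusted p = 0.0642 in the fit of every kept probe) and was lower on all 4 shared slides, by 0.15 to 0.71, and in Cy5 alone it fell by 0.79 (adjusted p = 0.0369). The 4 P8w arrays of Marco ran from -1.16 to 1.01. With marked spots kept Clec4f averaged -0.19 in E8w1B and 0.12 in P8w (-0.30 ± 0.17, adjusted p = 0.243), which missed the threshold.

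**Figure D2:**
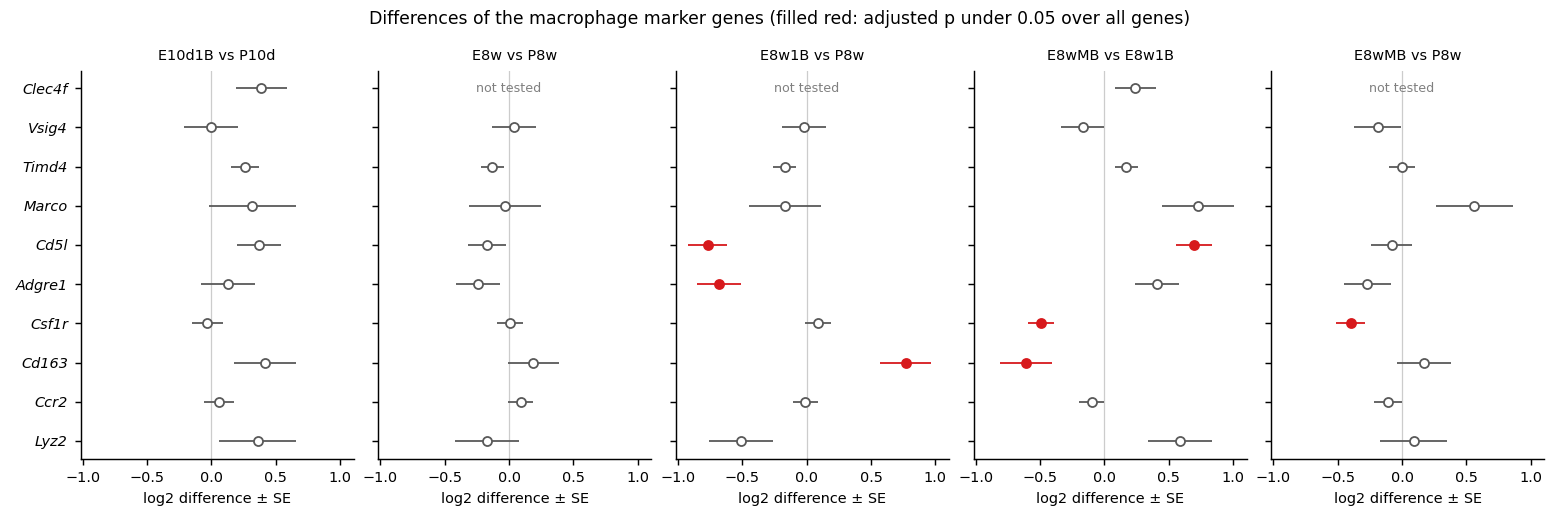
Points show the log2 difference of each marker gene in 5 comparisons, with lines for its standard error and filled red points for adjusted p under 0.05 over all genes tested. Cd5l and Adgre1 lie left of 0 and Cd163 right of 0 in E8w1B against P8w, and no point is filled in E8w against P8w or in E10d1B against P10d.

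The wider lists of macrophage genes, which contain the markers, showed the same mixture after a single binge. This comparison called 16.2% of all genes tested. Of 16 resident Kupffer cell genes tested in E8w1B against P8w 4 fell and 1 rose, with a median of -0.10 beside 0.02 over all genes. The other 3 that fell were Nr1h3, which encodes LXR alpha (-0.96 ± 0.14, adjusted p = 3.91e-05), Folr2, a folate receptor of resident macrophages (-0.61 ± 0.17, adjusted p = 0.0145), and C6, a complement component that Kupffer cells transcribe (-1.22 ± 0.34, adjusted p = 0.0148, with 2 P8w arrays). Nr1h3 averaged -0.64 in E8w1B and 0.31 in P8w, and it is also transcribed in hepatocytes. Of 22 pan-macrophage genes 3 fell, among them Irf8, a transcription factor of the monocyte lineage (-0.34 ± 0.08, adjusted p = 0.0065), and 1 rose, the lysosomal protease gene Lgmn (0.46 ± 0.13, adjusted p = 0.0184).

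Of 14 recruited monocyte and macrophage genes 2 rose and 1 fell, beside 16.2% of all genes called. Cd14, the co-receptor for endotoxin, rose to 0.36 in E8w1B livers, against -1.94 in P8w livers (2.30 ± 0.32, adjusted p = 3.01e-05), and the tetraspanin gene Cd9 rose by 1.43 ± 0.24 (adjusted p = 0.000239). Itgal, an integrin subunit of leukocytes, fell by 0.29 ± 0.10 (adjusted p = 0.0407). Ccr2 itself differed by -0.01 ± 0.10, and its ratios ran from -0.10 to 0.22 in E8w1B and from 0.05 to 0.20 in P8w. Its probe was dim, at means of 6.94 in Cy5 and 6.82 in Cy3 (log2 intensity). Its reference signal was well above background on 19 of 24 arrays, which limits this result. None of the 10 ligands of macrophages, which include Csf1, Il34 and Ccl2, was called. Csf1 had the lowest adjusted p (-0.24 ± 0.11, adjusted p = 0.152). Only 5 of the 10 ligands were well above background on all arrays, and the list had a median Cy5 percentile of 42.5, which limits this result.

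Markers of other liver cells moved in the same comparison, which called 16.2% of all genes. Of 10 sinusoidal endothelial markers 3 fell and 1, Lyve1, rose by 2.29 ± 0.23 (adjusted p = 8.28e-07), while the summed Cy5 signal of the 9 measured on all arrays ran from 4200 to 7210 in E8w1B and from 5990 to 7370 in P8w. Of 10 neutrophil markers 2 rose, S100a9 by 1.12 ± 0.20 (adjusted p = 0.000397) and S100a8 by 0.61 ± 0.15 (adjusted p = 0.00563), and the summed signal of 9 of them ran from 3560 to 4490 in E8w1B and from 2510 to 4250 in P8w. The resident Kupffer cell genes summed to between 7110 and 9480 in E8w1B and between 9790 and 16500 in P8w, over the 12 measured on every array. Clec4f and Cd5l, which had marked spots, are not among these 12. The mean ratios of the same genes overlapped, at -0.38 to -0.01 in E8w1B and -0.23 to 0.07 in P8w. The sums of stellate cell markers (2610 to 3650 against 3760 to 5350) and dendritic cell markers (628 to 691 against 776 to 887) were also apart. How often other sets of genes are apart was not counted. All 10 endothelial markers and 10 of the 12 neutrophil markers were well above background on every array. Of the stellate cell markers 2 of 7 fell and of the hepatocyte markers 1 of 6, and 0 of 5 dendritic, 0 of 8 T and NK cell, 0 of 5 B cell and 0 of 5 cholangiocyte markers were called. The part of the other cell types in the changes of the markers was not tested.

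The binge after 10 days of ethanol was tested in the same way. None of the 10 markers was called in E10d1B against P10d, where 7.22% of genes were, and 2 had an unadjusted p under 0.05, Timd4 and Cd5l. Yet 4 of the 10 had all 3 E10d1B arrays above all 3 P10d arrays, a pattern met by 13.9% of all genes tested, and 8 of the 10 differences were above 0, with a median of 0.29 beside 0 over all genes. In Cy5 alone 0 markers were called, beside 1.79% of genes.

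Clec4f had ratios of 0.24, 0.03 and 0.20 on the E10d1B arrays, against -0.29, -0.26 and -0.16 on the P10d arrays, a difference of 0.39 ± 0.20 (adjusted p = 0.302). Cd5l had 0.48, 0.27 and 0.43 on the E10d1B arrays, against 0.04, 0.07 and -0.05 on the P10d arrays, a difference of 0.37 ± 0.17 (adjusted p = 0.224). Lyz2 had 0.24, 0.34 and 0.29 on the E10d1B arrays, against -0.18, -0.07 and 0.04 on the P10d arrays, a difference of 0.36 ± 0.30 (adjusted p = 0.581). The 3 genes were higher on every E10d1B array, but at a size that the fit over all genes did not separate from the spread between arrays of all groups.

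Timd4 had the lowest adjusted p of this comparison, 0.199, at 0.26 ± 0.11. Its probe was well above background on 1 of 3 E10d1B arrays and on 0 of 3 P10d arrays. In Cy5 alone it averaged 6.47 in E10d1B and 6.33 in P10d (log2 intensity), and the groups overlapped. Among the related genes Csf1, the ligand of CSF1R, rose to 0.39 in E10d1B livers, against -0.32 in P10d livers (0.71 ± 0.13, adjusted p = 0.00155). Lgmn rose by 0.60 ± 0.16 (adjusted p = 0.0235) and Plac8, a gene of blood monocytes, rose by 0.55 ± 0.14 (adjusted p = 0.0171). Of 22 pan-macrophage genes 1, Lgmn, rose and 1 fell. Of 10 sinusoidal endothelial markers 4 rose, among them Lyve1 by 1.24 ± 0.29 (adjusted p = 0.00834), beside 7.22% of all genes called. Their summed Cy5 signal ran from 5700 to 6190 in E10d1B and from 3910 to 3990 in P10d. Of the stellate cell markers 2 of 7 rose, as did 1 of 8 T and NK cell and 1 of 6 hepatocyte markers. No neutrophil, dendritic, B cell or cholangiocyte marker was called. The part of these cell types in the pattern of the macrophage markers was not tested.

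Whether the binge response differed between 8 weeks and 10 days of ethanol was tested as the difference of the effects, E8w1B against P8w minus E10d1B against P10d. Cd5l was the marker called, out of 9 tested and beside 3.36% of all genes; in Cy5 alone Cd5l and Adgre1, 2 of 9, were called beside 1.66%. Its effect was -0.77 after 8 weeks and 0.37 after 10 days, and the difference of the effects was -1.15 ± 0.23 (adjusted p = 0.00509). With the slide as a block it was -1.01 (adjusted p = 0.0263). Median centring in place of loess gave -1.03 and lost the call (adjusted p = 0.0985, range over the 13 alternatives 0.00185 to 0.0985). The effects share no array, and each effect was taken within its own scan. The 10-day and the 8-week arrays were scanned apart, however. A difference of scale between the scans therefore cannot be told apart from one of feeding length.

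The other 8 tested markers had interaction values from -0.86 (Lyz2) to 0.35 (Cd163) and were not called. Adgre1 came to -0.81 ± 0.27 (adjusted p = 0.113) and Timd4 to -0.43 ± 0.15 (adjusted p = 0.121). Cd163 rose after the binge in 8-week mice, and its interaction of 0.35 ± 0.31 (adjusted p = 0.637) did not separate it from the 10-day value of 0.42 ± 0.24. Among the related genes Csf1 (-0.95 ± 0.17, adjusted p = 0.00176), Cd14 (2.04 ± 0.51, adjusted p = 0.0251) and Irf8 (-0.56 ± 0.13, adjusted p = 0.0181) passed. Of 22 pan-macrophage genes 1 was called above 0 and 1, Irf8, below 0. Nr1h3, at -0.77 ± 0.22, came to an adjusted p of 0.051. Markers of other liver cells moved with this interaction, which called 3.36% of all genes. Of 10 sinusoidal endothelial markers 4 were called, all below 0, among them Fcgr2b (-1.81 ± 0.27, adjusted p = 0.000203) and Clec4g (-1.53 ± 0.23, adjusted p = 0.000193), as were 2 of 7 stellate cell markers and 1 of 6 hepatocyte markers. Their part in the value of Cd5l was not tested.

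Repeated binges over 8 weeks were compared with each of the other 8-week groups, and all of these values carry the change of scan. In E8wMB against E8w1B 3 of 10 markers were called, beside 29.4% of all genes: Cd5l was higher, and Cd163 and Csf1r were lower. Cd5l had ratios of 0.34, 0.14, 0.41 and 0.12 on the E8wMB arrays, against the E8w1B values of -0.71 to 0.19 given above. The groups overlapped at E8w1B replicate 2 alone. The difference was 0.70 ± 0.14 (adjusted p = 0.00105), and it was -0.08 ± 0.16 against P8w and 0.10 ± 0.14 against E8w. Cd5l in multi-binge livers thus lay between the P8w and E8w means of 0.33 and 0.16, at 0.25.

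Cd163 had ratios of -0.23, -0.53, 0.01 and -0.47 on the E8wMB arrays, against -0.40 to 0.96 on the E8w1B arrays, a difference of -0.61 ± 0.20 (adjusted p = 0.0248). The groups overlapped at E8w1B replicate 1, and the call was lost in 4 of 9 fits without 1 array, among them the one without E8w1B replicate 2 (-0.44). Nr1h3 followed Cd5l, at 0.11 in E8wMB and -0.64 in E8w1B (0.75 ± 0.14, adjusted p = 0.00043). Without E8w1B replicate 2 the number of markers called was 6 in place of 3, where 26.5% of all genes were called, with Adgre1, Clec4f, Lyz2 and Marco added and Cd163 lost.

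Csf1r, the receptor on which macrophage survival depends, was the marker called in all 3 comparisons of E8wMB, and its 3 probes did not behave alike. In E8wMB against P8w it was the 1 marker of 9 called, where 20.5% of genes were, and against E8w the 1 of 10, where 24.9% were. The brightest probe (A_51_P365885) had ratios of 0.63, 0.20, 0.09 and 0.09 on the E8wMB arrays, against 0.72, 0.81, 0.80, 0.78 and 0.62 on the E8w1B arrays and 0.62, 0.79, 0.73 and 0.46 on the P8w arrays. Of the E8wMB arrays 3 lay below every other 8-week array and replicate 1 lay among them. This probe fell by 0.40 ± 0.11 against P8w (adjusted p = 0.00995), by 0.42 ± 0.10 against E8w (adjusted p = 0.0046) and by 0.49 ± 0.10 against E8w1B (adjusted p = 0.000976). The call against P8w was lost in a fit of these groups alone (adjusted p = 0.0556, range over the 12 alternatives 0.00714 to 0.0556). The call against E8w1B was lost in Cy5 alone (-0.36, adjusted p = 0.0627, range over the 12 alternatives 0.000676 to 0.171).

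When every kept probe was fitted as a feature of its own, the second probe of Csf1r (A_52_P570471) followed, with ratios of -0.74 to -0.44 on the E8wMB arrays, against -0.13 to 0.30 on the E8w1B arrays and -0.35 to 0.38 on the P8w arrays. The groups did not overlap, and the share of all probes with this pattern was not counted. It differed by -0.61 ± 0.13 from P8w (adjusted p = 0.00227) and by -0.68 ± 0.12 from E8w1B (adjusted p = 0.000301). The third probe (A_52_P602091) went the other way, with ratios of 0.06, 0.03, -0.08 and 0.13 on the E8wMB arrays, against -1.56, -0.19, -0.49, -0.29 and -0.41 on the E8w1B arrays. It differed by 0.06 ± 0.21 from P8w (adjusted p = 0.877) and was higher by 0.62 ± 0.20 than in E8w1B (adjusted p = 0.0194). In these probe-wise fits 19.7% of all probes were called against P8w, 25.6% against E8w and 28.9% against E8w1B. In Cy5 alone all 3 probes of Csf1r were lower in E8wMB than in P8w, by 0.56, 0.80 and 0.91, while the reference channel of the third probe was also lower, at 8.01 in E8wMB and 8.98 in P8w (mean log2 intensity). The mean of the 3 probes gave -0.32 against P8w and -0.18 against E8w1B, the second of which was not called.

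**Figure D3:**
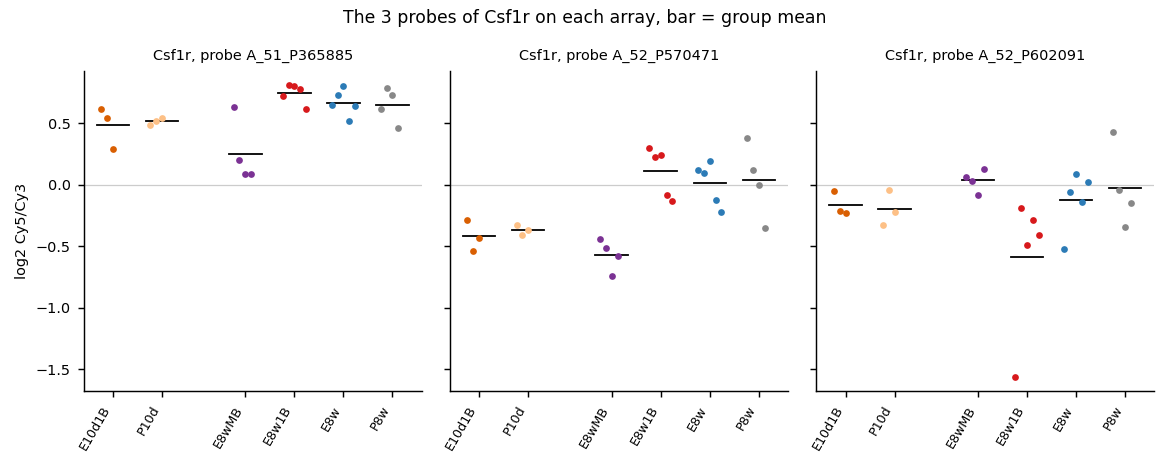
The log2 ratio of liver over reference is plotted for the 3 probes of Csf1r, with arrays as points and group means as bars. In E8wMB the first 2 probes lie low, at means of 0.25 and -0.57, and the third lies at 0.03.

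Lyz2 showed how far the channels alone can differ from the ratio. Its brighter probe (A_52_P238027) averaged 10.53 ± 0.23 in Cy5 of the E8wMB arrays, against 8.88 ± 0.69 in E8w1B and 9.44 ± 0.38 in P8w (log2 intensity, SD, n = 4, 5 and 4). The reference RNA on the same arrays averaged 10.25 ± 0.25 in E8wMB, 9.19 ± 0.14 in E8w1B and 9.25 ± 0.23 in P8w. Cy5 was higher by 1.09 in E8wMB than in P8w and Cy3 by 1.00, and the ratio differed by 0.09 ± 0.26 (adjusted p = 0.85). The second probe of Lyz2 (A_51_P321150) did not share this, with a Cy5 mean of 9.35 ± 0.16 in E8wMB and 9.36 ± 0.53 in P8w and a Cy3 mean of 9.14 ± 0.25 in E8wMB and 9.43 ± 0.22 in P8w. Against E8w1B the ratio of the brighter probe differed by 0.59 ± 0.25 (adjusted p = 0.073) and that of the second by 0.74 ± 0.25 (adjusted p = 0.0263 in the probe-wise fit).

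Read in Cy5 alone, 3 of 9 markers were called in E8wMB against P8w (Csf1r, Lyz2 and Vsig4), where 47.9% of all genes were called, 5 of 10 against E8w, where 49% were, and 5 of 10 against E8w1B, where 46.6% were. Vsig4 was lower by 1.02 in Cy5 and by 0.83 in Cy3 in E8wMB against P8w, and its ratio differed by -0.19 ± 0.18, which missed the threshold. Its ratios were 0.22, -0.71, -0.87 and -0.96 on the E8wMB arrays, against -0.49, -0.06, -0.35 and -0.66 on the P8w arrays, so that 3 arrays were low and replicate 1 was high. Without that array the ratios called 2 markers against P8w, Csf1r and Vsig4, in place of 1, and 2 were also called without P8w replicate 2.

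**Figure D4:**
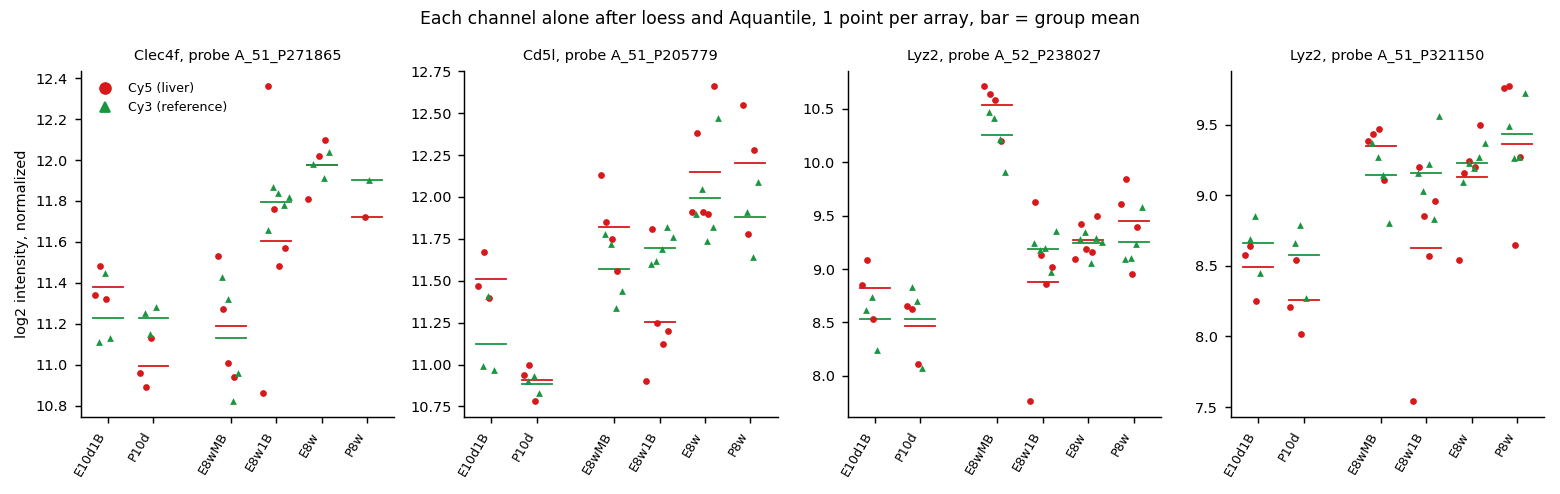
Red circles show Cy5 (liver) and green triangles Cy3 (reference), as normalized log2 intensity on each array, with bars for group means, for Clec4f, Cd5l and both probes of Lyz2. Both channels of the brighter Lyz2 probe are high in E8wMB. For Cd5l, P8w lies above P10d by 1.30 in Cy5 and 0.99 in Cy3. E10d1B, of the same scan as P10d, lies above it by 0.61 and 0.24, so both 10-day groups lie below P8w. Against P8w, Cd5l in E8w1B differs by -0.95 in Cy5 and -0.18 in Cy3.

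Of the other macrophage genes in multi-binge livers, the ligand Ccl4 was higher by 0.34 ± 0.08 against P8w (adjusted p = 0.00379), and 1 of 10 ligands was called. In this comparison 20.5% of all genes were called. In the ratio, 1 of 14 recruited monocyte genes rose and 2 fell. Cd14 rose by 1.90 ± 0.34 (adjusted p = 0.00072). Itgam, the CD11b integrin chain, fell by 0.96 ± 0.18 (adjusted p = 0.00103) and Ms4a4c by 0.78 ± 0.16 (adjusted p = 0.00163). For Itgam, Cy5 alone differed by -0.27 (adjusted p = 0.214) and the reference channel by 0.70, so most of its ratio difference came from the reference. Cd14 differed by 1.07 in Cy5 and -0.83 in Cy3, and Ms4a4c by -0.71 and 0.07. Of 15 resident Kupffer cell genes C6 fell (-1.69 ± 0.35, adjusted p = 0.00216, with 2 P8w arrays), and of 22 pan-macrophage genes 1 rose and 3 fell. Ccr2 had ratios of -0.15 to 0.11 in E8wMB and differed by -0.11 ± 0.11 from P8w. Marco, at 0.49, 0.18, 0.40 and 0.00 on the E8wMB arrays, lay above all E8w arrays. The share of all genes with this pattern is not reported here. Marco differed from E8w by 0.60 ± 0.28 (adjusted p = 0.124) and from E8w1B by 0.73 ± 0.28 (adjusted p = 0.0556), both short of the threshold.

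The length of pair feeding left the marker ratios without a call. In P8w against P10d 0 of 9 markers passed, beside 1.53% of all genes, and 1 had an unadjusted p under 0.05. Timd4 had the lowest adjusted p (0.32 ± 0.11, adjusted p = 0.126) on a probe that was well above background on 3 of 4 P8w arrays and 0 of 3 P10d arrays. The scanner software's log ratio and the deposited table each called Timd4 here. In Cy5 alone 4 of 9 were called where 9.74% of genes were: Cd5l was higher by 1.30, Adgre1 by 1.12, Lyz2 by 0.98 and Csf1r by 0.62. The reference channel of the same probes was higher by 0.99, 0.81, 0.72 and 0.48, so most of each Cy5 difference was shared by the reference. One of 22 pan-macrophage genes, Irf8, was higher in P8w (0.40 ± 0.10, adjusted p = 0.0361), and 0 genes of the other 3 macrophage lists were called.

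Ordered by mean ratio, Cd5l ran from E10d1B (0.39) over P8w (0.33), E8wMB (0.25), E8w (0.16) and P10d (0.02) to E8w1B (-0.44), and E8w1B was the one group called against another 8-week group. Cd163 ran from E8w1B (0.30) over E10d1B (-0.01), E8w (-0.29), E8wMB (-0.31) and P10d (-0.43) to P8w (-0.47), where the differences among the other five groups that were tested did not pass. The brightest Csf1r probe ran from E8w1B (0.74) over E8w (0.67), P8w (0.65), P10d (0.51) and E10d1B (0.49) to E8wMB (0.25). Vsig4 and Ccr2 spanned -0.58 to -0.35 and 0.00 to 0.20 over the group means, and no comparison called either.

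Some markers deviated together between arrays of the same group, in part through E8w1B replicates 1 and 2. After group means were subtracted, Lyz2 and Adgre1 correlated at r = 0.88 (rho = 0.83, 24 arrays), and at 0.77 without the 2 arrays farthest from the median of Lyz2. Clec4f and Cd5l correlated at 0.87 over 19 arrays (0.70 without the 2 farthest), and Vsig4 and Csf1r at 0.85 over 24 (0.71 without the 2 farthest). Vsig4 correlated with Lyz2 at 0.18 and Csf1r with Lyz2 at 0.20. The third Csf1r probe correlated with the brightest at 0.13 and with Lyz2 at 0.85. The 2 probes of Lyz2 correlated at 0.97, and the 2 probes of Adgre1 at 0.16. Ccr2 stayed between -0.18 and 0.44 with all other markers. Both genes of a pair were read on the same arrays, and arrays of different groups shared slides, so the points share labelling and signal level.

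Several of the correlations rested largely on 1 pair of arrays. The correlation of Clec4f with Lyz2, 0.85 over 19 arrays, was 0.24 without E8w1B replicates 1 and 2. Clec4f with Adgre1 went from 0.79 to 0.25, Adgre1 with Cd163 from 0.62 to 0.23 and Cd163 with Lyz2 from 0.75 to 0.46. Of 12696 genes compared with Clec4f over 19 arrays, the 5 closest were Tgfb3 (r = 0.95), Tmsb4x (0.93), Slc5a5 (0.91), Tecpr1 (0.91) and Tmem140 (0.90), which came to 0.69, 0.48, 0.39, 0.56 and 0.56 without those 2 arrays. Of 12104 genes compared with Lyz2 over 24 arrays, the 5 closest were Tyrobp (0.93), Tmsb4x (0.90), Adgre1 (0.88), Wfdc17 (0.87) and C1qb (0.87), which came to 0.82, 0.69, 0.77, 0.77 and 0.67.

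**Figure D5:**
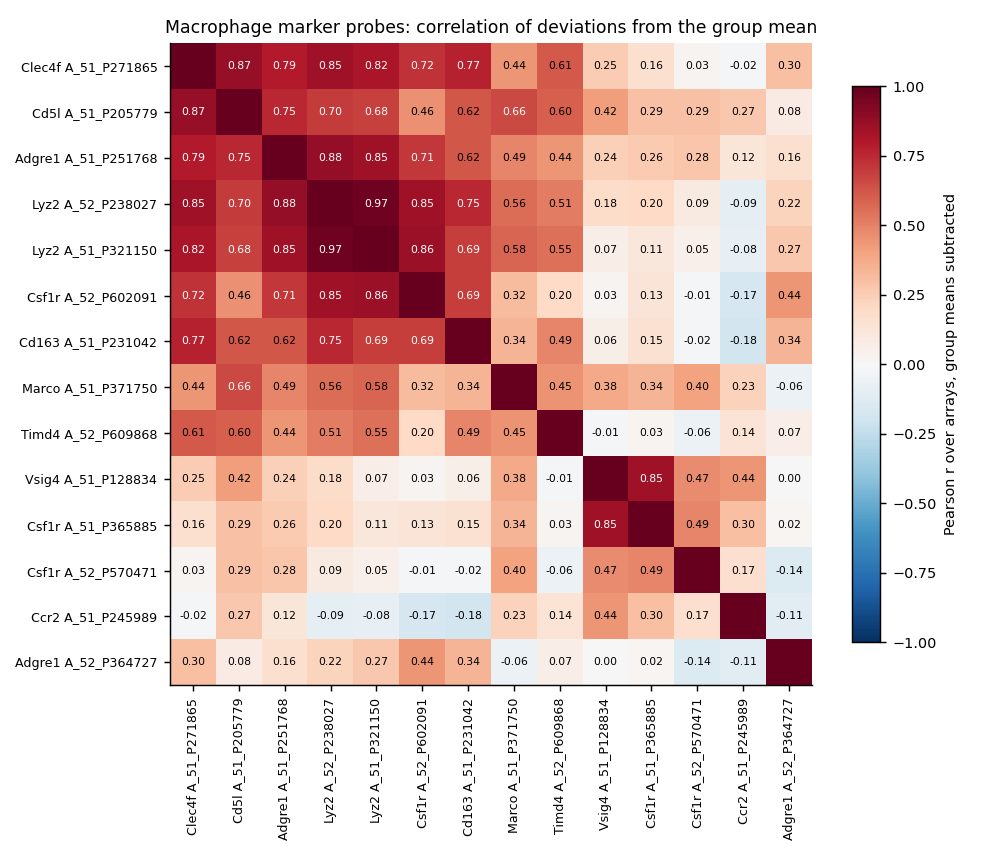
The matrix gives Pearson r between the 14 marker probes over arrays after subtraction of the group means, over 19 to 24 arrays. Clec4f, Cd5l, Cd163, the brighter Adgre1 probe, both Lyz2 probes and the third Csf1r probe lie between 0.46 and 0.97 with each other. The dim second Adgre1 probe lies between 0.08 and 0.44 with them. Vsig4 lies between 0.47 and 0.85 with the first 2 Csf1r probes. Without E8w1B replicates 1 and 2, Clec4f with Adgre1 came to 0.25, while Clec4f with Cd5l stayed at 0.70.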

How the data were processed

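Total RNA of 24 livers (Cy5) was hybridized with a reference RNA (Cy3) on Agilent arrays, per the labels' protocols. Per the file headers, spots were quantified by Agilent Feature Extraction 11.5.1.1, which gave the median spot and background intensity and a log10 ratio of processed signals that the authors deposited. A deposited table of log2 values followed those processed ratios with a slope of 1.

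The ratios were computed again from median intensities in limma 3.58.1 (R 4.3.3): normexp with an offset of 50, loess within each array, no scaling between arrays. Spots that the software marked as uneven or outlying, 1.34% to 7.64% per array, were left out; 0 were saturated. Cy5 and Cy3 alone were taken after loess and Aquantile. A probe was kept where 3 or more arrays had it well above background in Cy5. RefSeq names of GRCm38.p6, used for names only, gave 24420 probes 1 symbol, 24375 of them through the transcript accession and the rest through synonyms, and the brightest kept probe measured on 2 arrays of every group stood for each of 16175 genes.

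One limma fit of 6 group means gave 9 comparisons over genes with at least 2 arrays in each group, adjusted by Benjamini-Hochberg; all adjusted p-values come from it or from the named alternative. The fit was tested on simulated data. All 10 markers were named; of the other lists, up to 4 called genes with the lowest adjusted p per comparison. Likeness was given for Clec4f and Lyz2 by fixed rule. The markers, lists and tests were chosen with earlier results of these data known. The labels state no pairing by replicate number, and the fit used none. Same-numbered arrays correlated at -0.25 to 0.36, which cannot decide whether the samples were paired. Fitting each kept probe was added after seeing the data. Cd68, Ly6c2, Clec7a, Ly6g, Clec9a, Serpina1c and Cps1 matched no probe and F13a1, Gpnmb and Siglech were below the filter; they were not analysed here. Results for some genes of the lists are not reported here.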

Additional observations from a re-analysis of the deposited data

Results flagged for a closer look

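Within groups of 4 or more arrays, 53 sets of marker values were searched for an array that stood apart by Dixon's criterion, and 4 did; chance gives about 1 in 20. Timd4 stood high on E8w replicate 5, at 0.31, against -0.02 to 0.07 on the other 4 arrays. It also stood high on E8w1B replicate 2, at 0.27, against -0.05 to 0.01 on the others. The third Csf1r probe (A_52_P602091) stood low on E8w1B replicate 1, at -1.56, against -0.49 to -0.19. The second Lyz2 probe (A_51_P321150) stood low on E8w replicate 1, at -0.55, against -0.07 to 0.12. Cd5l differed in its binge response between 8 weeks and 10 days of ethanol, by -1.15 in the interaction test.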

How the results depend on the processing

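The call of Cd5l in E8w1B against P8w, in E8w1B against E8w and in E8wMB against E8w1B held under every setting tried. The number of markers called moved by over 1.5 times in these settings. A fit of the compared groups alone called 1 marker in E8w1B against P8w, 1 in E8w1B against E8w, 0 in E8wMB against P8w and 2 in E8wMB against E8w. Median centring called 1 in E8w1B against E8w, 2 in E8wMB against E8w and 0 for the interaction. Cy5 alone called 1 in E8w1B against E8w, 3 in E8wMB against P8w, 5 in E8wMB against E8w, 5 in E8wMB against E8w1B, 4 in P8w against P10d and 2 for the interaction. No background correction called 5 in E8wMB against E8w1B. The scanner software's log ratio and the deposited table each called 5 in E8wMB against E8w1B, 1 in P8w against P10d and 2 for the interaction. With 1 array left out the counts ranged from 1 to 2 in E8w1B against E8w, from 1 to 2 in E8wMB against P8w and against E8w, from 2 to 6 in E8wMB against E8w1B, from 3 to 4 in E8w1B against P8w and from 1 to 2 for the interaction, and were 0 in the other 3 comparisons. The third Csf1r probe turned the sign, at 0.06 against P8w, 0.15 against E8w and 0.62 against E8w1B. The cause of these moves was not tested. Over all genes, the share called with median centring was 2.34% in E10d1B against P10d (7.22% as reported), 7.72% in E8w1B against P8w (16.2%), 8.34% in E8w1B against E8w (16.4%) and 1% for the interaction (3.36%). The fixed slide block called 3.79% in E10d1B against P10d and 1.16% for the interaction, and the fit of E8w1B and P8w alone 10.3%. In E8w against P8w the settings called between 11 and 41 genes, beside 24. Without background correction 2.41% were called in P8w against P10d, and with the replicate block 4.17% (1.53% as reported). Higher genes made up 39.1% of those called in E8wMB against P8w and 53.8% with the scanner software's log ratio, 40.8% and 56.4% against E8w, and 40.8% and 56.9% against E8w1B. Cy5 alone gave 18.4% in place of 46.5% in E8w1B against P8w, 29.3% in place of 48.9% against E8w and 8.17% in place of 28.1% for the interaction. Median centring moved the median of all genes to -0.14 in E8wMB against E8w1B, and Cy5 alone to -0.11 for the interaction. Median centring gave 72.6% higher in place of 59.8% in E10d1B against P10d and 97.2% in place of 68.5% in P8w against P10d. The replicate block, with numbers that are not known to pair the arrays, called 3 markers in E8w1B against P8w and 4 in E8wMB against E8w1B. A fixed slide block could not be fitted for E8wMB or for P8w against P10d. Timd4 and the second Adgre1 probe lay near background and Ccr2 was dim, which limits them.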
